A study of Mus musculus with 5 samples.

Results

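The caveolae coat genes comprise 3 caveolins (Cav1, Cav2, Cav3), 4 cavins (Cavin1, Cavin2, Cavin3, Cavin4) and the neck ATPase gene Ehd2. They were taken by symbol as a fixed list, and all 8 were found among the 78334 gene identifiers of the deposited count table. The table came from bulk messenger RNA of visceral adipose tissue of male C57BL/6 mice, an inbred laboratory strain, in 5 libraries. Mice entered the study at 8 weeks of age. The control group was 1 library from chow-fed animals given vehicle. The obesity group was 2 libraries from mice fed 60% of their calories as fat for 8 weeks and then given vehicle. The resveratrol group was 2 libraries from mice on the same diet that then received the plant polyphenol resveratrol at 2.25 mg/kg each day. All dosing was by gastric tube for 28 days from 16 weeks of age. Whether the high-fat diet went on during dosing is not stated in the labels, which also leave unsaid how many animals stand behind the libraries. The p-values therefore measure the spread between these libraries, which may be technical.

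Caveolae are small flask-shaped pits of the plasma membrane. Caveolins are hairpin proteins inserted into the inner leaflet, cavins are cytosolic proteins that coat and stabilise the bulb, and EHD2 forms a ring at the neck that holds the pit at the surface. Adipocytes, endothelial cells and smooth muscle cells are especially rich in caveolae, and loss of Cav1 or Cavin1 causes a shortage of body fat in mice and people. Cav3 and Cavin4 are the striated muscle forms, and Cav3 is also made in some smooth muscle.

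RefSeq promoter windows on build GRCm38.p6 were at hand for 7 of the 8 genes (Cavin3 had no entry). The 250 bases before the annotated start are shown for Cav1 and Cav2, abundant caveolins that are next to each other among the protein-coding genes of chromosome 6, and for Cav3 and Cavin4, the 2 scarce genes whose levels went their own way. Capitals mark the GC box GGGCGG, the E-box CANNTG, the CCAAT box CCAAT and the TATA box TATAAA, each searched on both strands, and no 2 of these matches overlapped in the sequences shown.
Cav1 (chr6:17306085-17306334, plus strand): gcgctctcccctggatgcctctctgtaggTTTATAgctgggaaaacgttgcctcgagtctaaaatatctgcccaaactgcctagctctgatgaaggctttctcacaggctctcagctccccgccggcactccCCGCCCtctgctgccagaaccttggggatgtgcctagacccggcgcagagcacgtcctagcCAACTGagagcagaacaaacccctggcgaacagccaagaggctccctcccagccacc
Cav2 (chr6:17280935-17281184, plus strand): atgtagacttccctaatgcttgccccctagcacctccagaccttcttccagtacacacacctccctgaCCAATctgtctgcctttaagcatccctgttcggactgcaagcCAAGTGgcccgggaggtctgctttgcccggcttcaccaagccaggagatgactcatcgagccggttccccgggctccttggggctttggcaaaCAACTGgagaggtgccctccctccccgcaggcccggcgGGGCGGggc
Cav3 (chr6:112459255-112459504, plus strand): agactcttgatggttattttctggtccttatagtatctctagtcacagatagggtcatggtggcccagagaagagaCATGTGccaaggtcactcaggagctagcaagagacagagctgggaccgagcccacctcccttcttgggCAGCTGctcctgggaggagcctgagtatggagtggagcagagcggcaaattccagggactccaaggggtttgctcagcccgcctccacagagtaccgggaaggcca
Cavin4 (chr4:48663264-48663513, plus strand): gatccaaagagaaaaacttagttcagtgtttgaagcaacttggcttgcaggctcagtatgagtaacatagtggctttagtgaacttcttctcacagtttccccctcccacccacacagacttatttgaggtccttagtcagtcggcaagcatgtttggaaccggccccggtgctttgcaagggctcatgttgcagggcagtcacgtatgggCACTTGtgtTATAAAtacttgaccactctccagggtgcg
A GC box lay in the windows of Cav1 (first base 118 bases before the start), Cav2 (9 bases), Cavin1 (7 bases) and Ehd2 (226 bases), and in none of those of Cav3, Cavin2 and Cavin4. Cav3 held 2 E-boxes, one of them CAGCTG at 106 bases before the start. Cavin4 held an E-box at 39 bases and a TATA box at 30 bases before the start. Boxes of the same kinds lay at other positions in abundant members. Cav2 also held 2 E-boxes, at 140 and 47 bases, and Ehd2 held CAGCTG at 204 bases. Cav1 held an E-box at 57 bases and a TATA box, as TTTATA on the opposite strand, at 221 bases. Of 32817 such windows in the genome table, 32.7% held the GC box, 66.2% the E-box, 33.8% the CCAAT box and 12.4% the TATA box. A match is a description of the letters and not evidence of a bound factor.

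Library totals ran from 19540961 to 27026597 counts, and the tests ran over 24779 genes. Levels are CPM (counts scaled to library size with TMM factors). Errors after ± are SDs between the 2 libraries, and SE stands for the standard error of a fitted difference. The libraries did not match their tissue label equally. The 12 adipocyte markers, none of them at 0 in any library, added up to 499.6 CPM in control 1, to 25334 and 28738 CPM for obesity, and to 6684 and 28830 CPM in resveratrol 1 and 2. The 12 epididymis markers added up to 70714 CPM in control 1, to 25.9 and 0.238 CPM for obesity, and to 3399 and 0.350 CPM in resveratrol 1 and 2. Crisp1 alone made up 3397 CPM of the resveratrol 1 sum, where none of the other 11 markers exceeded 0.727 CPM and 4 were at 0. In obesity 2 and resveratrol 2, 10 of the 12 were at 0. The 12 smooth muscle markers summed to 57692 CPM in resveratrol 1 and to between 1252 and 2673 CPM in the other 4 libraries, with none at 0. Control 1, by its epididymis markers, and resveratrol 1, by its smooth muscle markers, therefore stood apart from the other 3 libraries. In these bulk libraries fewer cells of a type and less RNA per cell cannot be told apart.

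Of the 8 genes, 6 were abundant in the obesity libraries and rare in the control library: Cav1, Cav2, Cavin1, Cavin2, Cavin3 and Ehd2. In resveratrol 1 all 6 stood below both obesity libraries, while resveratrol 2 was close to them. Cav3 showed a different pattern, with reads almost only in control 1 and resveratrol 1, and Cavin4 was scarce throughout.

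**Figure D1:**
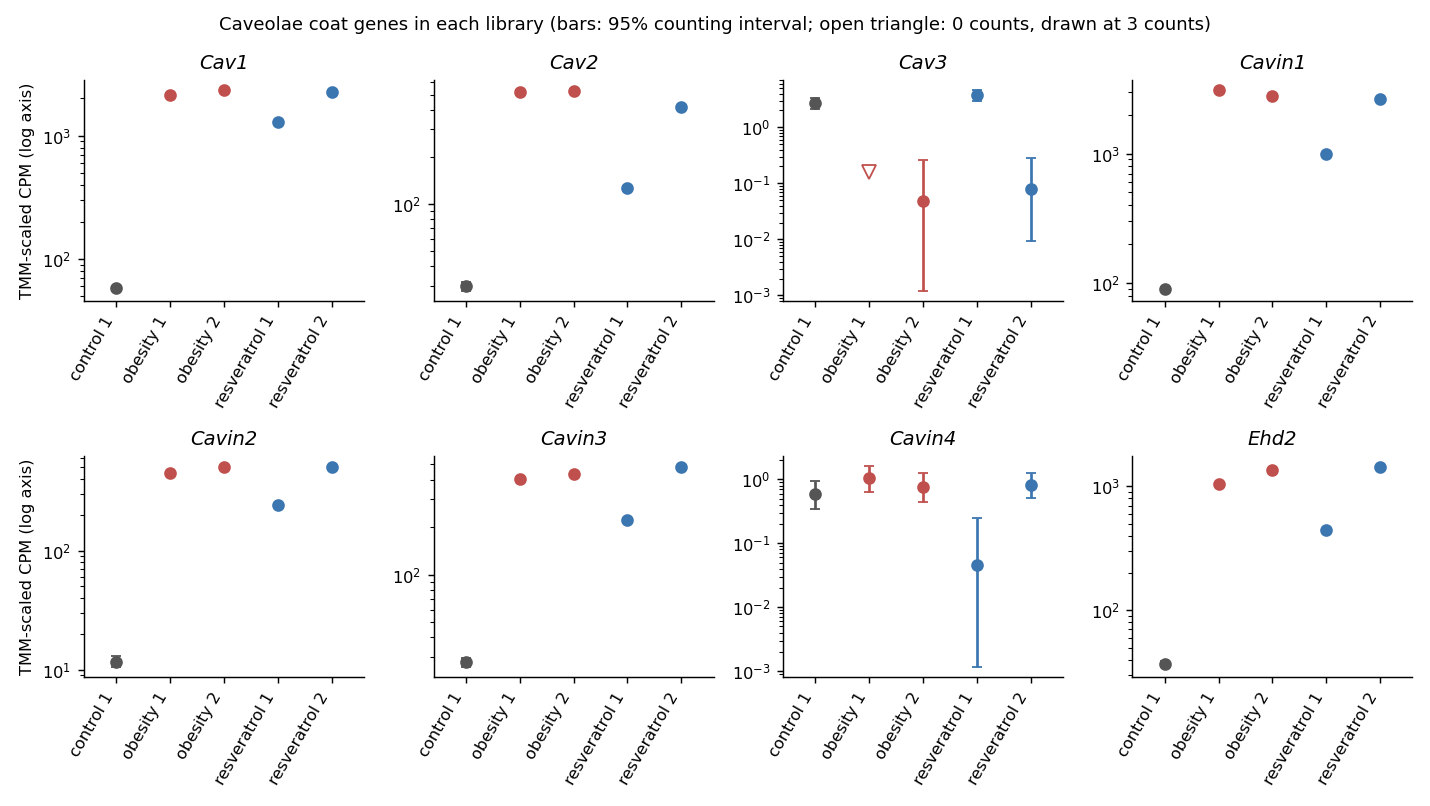
TMM-scaled CPM of the 8 genes (one panel each, log axes with their own range) in the 5 libraries, with 95% exact Poisson intervals for counting error; an open triangle marks a count of 0, drawn at 3 counts. In the panels of Cav1, Cav2, Cavin1, Cavin2, Cavin3 and Ehd2 the control library is lowest and resveratrol 1 second lowest, while Cav3 is highest in control 1 and resveratrol 1.

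Cav1, the principal caveolin of non-muscle cells, measured 58.0 CPM in control 1, 2121.5 and 2328 CPM in the obesity pair, and 1287 and 2262 CPM in resveratrol 1 and 2. The obesity libraries lay far above the control library, and resveratrol 2 lay between them. Cav2, which forms hetero-oligomers with caveolin-1 and depends on it to reach the surface, measured 29.8 CPM in control 1, 521 and 527 CPM in the obesity pair, and 126 and 415 CPM in resveratrol 1 and 2. For Cav2 both resveratrol libraries were below both obesity libraries.

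Cavin1, the cavin required for caveola formation, measured 90.3 CPM in control 1, 3083 and 2776 CPM in the obesity pair, and 994 and 2621 CPM in resveratrol 1 and 2. Its resveratrol libraries also lay below both obesity libraries, by a wide margin in resveratrol 1 and a narrow one in resveratrol 2. Cavin2, a phosphatidylserine-binding cavin that helps shape the membrane, measured 11.8 CPM in control 1, 443 and 499 CPM in the obesity pair, and 240 and 498 CPM in resveratrol 1 and 2. Cavin3, a cavin that binds protein kinase C delta, measured 27.7 CPM in control 1, 405 and 432 CPM in the obesity pair, and 223 and 480 CPM in resveratrol 1 and 2. Ehd2 measured 36.9 CPM in control 1, 1039 and 1364 CPM in the obesity pair, and 442 and 1441 CPM in resveratrol 1 and 2. For Cavin2, Cavin3 and Ehd2 the obesity and resveratrol groups overlapped, since resveratrol 1 was below the obesity pair and resveratrol 2 within or above it.

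Cav3 had 77 counts in the control library, 0 and 1 in the obesity libraries, and 83 and 2 in resveratrol 1 and 2. These counts correspond to 2.69 CPM in control and 3.77 CPM in resveratrol 1, where 3 counts are 0.105 and 0.136 CPM. From the counts, the level in the control library was 108 times that of the obesity pair, with an exact 95% interval of 18.8 to 4315, and the level in resveratrol 1 was 48.5 times that in resveratrol 2 (interval 13.0 to 407). These intervals cover counting error alone. The smooth muscle markers summed to 2673 and 57692 CPM in control 1 and resveratrol 1. Their sums were 1605, 1252 and 1304 CPM in obesity 1, obesity 2 and resveratrol 2. The 14 striated muscle markers summed to 68.7 CPM in control 1 and 1097 CPM in resveratrol 1, against 117, 53.8 and 42.0 CPM in obesity 1, obesity 2 and resveratrol 2. In resveratrol 1 Acta1 at 810 CPM and Ckm at 255 CPM made up most of that sum, while the fast myosin genes Myh2 and Myh4 were at 0 and the titin gene Ttn was at 0.681 CPM. The epididymis marker Crisp1 was at 2459.5 CPM in control 1, 3397 CPM in resveratrol 1 and 0 in the rest. Every other epididymis marker was at 615 CPM or more in control 1 but at 0.727 CPM or less in resveratrol 1. The part of either muscle type, or of epididymis, in the Cav3 level was not tested.

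Cavin4, the muscle cavin, had 17 counts in control, 20 and 16 in obesity, and 1 and 21 in resveratrol 1 and 2. The 4 libraries other than resveratrol 1 had overlapping counting intervals, from 0.345 to 1.61 CPM at their outer limits. The single count in resveratrol 1 came to 0.0507 times the rate of the obesity pair, with an exact 95% interval of 0.00125 to 0.301. Cav3 exceeded Cavin4 per length in control 1 and resveratrol 1, and Cavin4 exceeded Cav3 in the other 3 libraries.

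To compare levels between genes, CPM was divided by the merged exon length of each gene. In the obesity libraries Cavin1 was the highest on this per-length scale, at 817 ± 60.5 CPM per kb (SD, n = 2), followed by Cav1 at 646 ± 42.4. Cavin3 at 252 ± 11.6 and Ehd2 at 235 ± 44.9 CPM per kb came next and did not differ beyond their spread. Cav2 at 157 ± 1.22 and Cavin2 at 154 ± 12.9 CPM per kb also lay within each other's spread. Cavin4 at 0.439 ± 0.0970 and Cav3 at 0.0206 ± 0.0291 CPM per kb were far below the other 6. The per-length order began with Cavin1 and then Cav1 in every library except resveratrol 1, where Cav1 at 374 CPM per kb exceeded Cavin1 at 277. In the control library Cavin3 at 16.7 CPM per kb was level with Cav1 at 16.8, whereas in the other 4 libraries Cavin3 was well below Cav1.

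The proportions among the coat genes varied between libraries. Per length, the Cav2 to Cav1 ratio was 0.531 in control, 0.254 and 0.234 in obesity, and 0.101 and 0.189 in resveratrol 1 and 2. Both resveratrol libraries had less Cav2 per Cav1 than both obesity libraries, and the control library had more. The Cavin1 to Cav1 ratio was 1.496 in control, 1.40 and 1.14 in obesity, and 0.742 and 1.11 in resveratrol 1 and 2. The Cavin2 to Cav1 ratio varied least, from 0.210 in resveratrol 1 to 0.248 in resveratrol 2. The Cavin3 to Cav1 ratio was 0.990 in control and between 0.359 and 0.439 in the other 4 libraries. Of 7 such ratios, 4 separated the resveratrol from the obesity pair. An exact two-sided permutation test with 2 libraries a group cannot go below p = 0.333, which these 4 reached (Benjamini-Hochberg adjusted p = 0.583), so the differences in proportion are values and not calls.

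**Figure D2:**
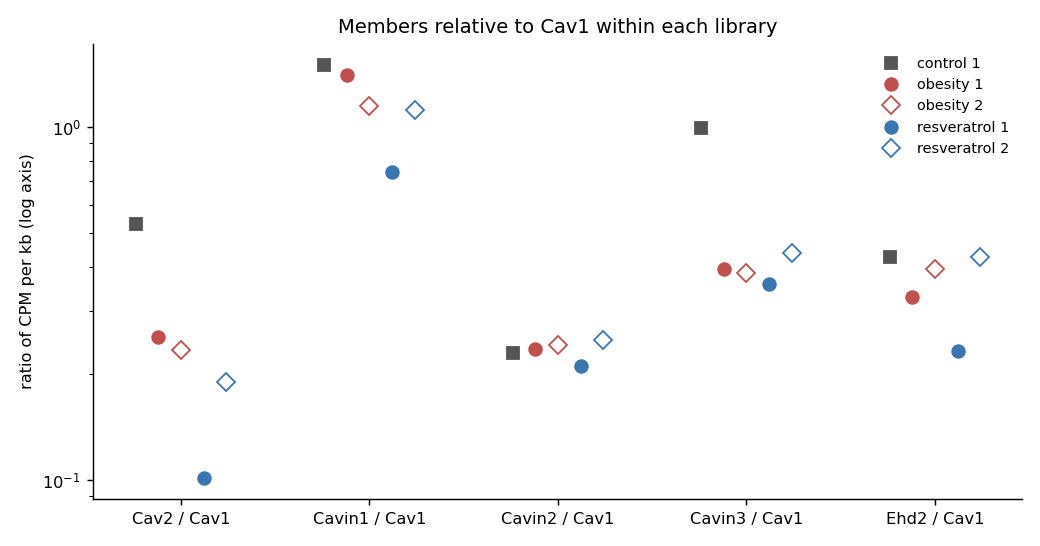
Ratio of CPM per kb of 5 coat genes to Cav1 (log axis) in the 5 libraries, one symbol per library. The Cav2 to Cav1 ratio falls from 0.531 in control 1 to 0.101 in resveratrol 1, while the Cavin2 to Cav1 ratio stays between 0.210 and 0.248.

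The first comparison asked how obese visceral fat compared with the lean control. The 6 abundant coat genes were 15.1-fold to 40.1-fold higher in obesity, Cavin2 having the largest and Cavin3 the smallest difference. Cavin2 was at 471 ± 39.5 CPM (SD, n = 2) in obesity, a log2 difference of 5.32 (SE 0.797, edgeR quasi-likelihood adjusted p = 0.160). Cav1 differed by 5.26 (SE 0.953, edgeR adjusted p = 0.176) and Cavin1 by 5.02 (SE 1.16, adjusted p = 0.182). Ehd2 differed by 5.03 (SE 1.18), Cav2 by 4.14 (SE 1.01) and Cavin3 by 3.92 (SE 0.744) on the log2 scale. Cav3 went the other way, with a fitted log2 difference of -6.49 (SE 2.57, edgeR adjusted p = 0.219) that depends on the prior count, since the obesity pair had 1 read in all. Leaving out obesity 2, which holds that read, gave -9.00, leaving out obesity 1 gave -5.65, and the replicate block gave -5.03. Cavin4 differed by 0.60 (SE 1.66), which is within the spread.

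None of the 8 genes passed an adjusted p of 0.05 in edgeR, where 0% of all 24779 genes tested were called. At an unadjusted p under 0.05, 6 of the 8 were higher, against 12.6% of all genes, and 0 were lower, against 11.7%. In 7 of the 8 both obesity libraries exceeded the control library, as in 40.8% of all genes, and in 1 of the 8 both were lower, as in 48.6%. The median log2 difference was 4.58 over the 8 genes and -0.10 over all genes tested. DESeq2 called 6 of the 8 higher, with adjusted p from 3.62e-17 for Cav1 to 6.28e-05 for Cav2, beside 10.8% of all genes, and 0 lower, beside 7.44%. limma-voom called 0 of the 8, beside 0% of all genes. edgeR called 7 of the 8 when resveratrol 1 was left out, 7 when resveratrol 2 was left out, and 7 when only the control and obesity libraries were fitted, in each case the 6 abundant genes as higher and Cav3 as lower. Those fits called 37.9%, 37.3% and 39.4% of all genes tested in them, in the same order. The control library has no partner and could not be left out.

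Marker levels in the control library stood as follows beside this result. The 6 abundant coat genes were at 2.49% to 6.61% of their obesity mean there, with a median of 3.08%. The adipocyte markers had a median of 1.42% (12 of 12 lower in control) and the macrophage markers 6.43% (8 of 8 lower). The endothelial markers had a median of 28.6% (12 of 12 lower). The fibroblast markers were mixed, with a median of 24.6% (6 lower and 3 higher in control, from 1.88% to 926%). So were the pericyte markers, with a median of 36.2% (6 lower and 1 higher, from 9.11% to 146%). The medians of the smooth muscle and epididymis lists lay above the obesity mean in the control library. The smooth muscle markers had a median of 204%, with single markers from 2.43% to 12630%, and the 4 epididymis markers that reached 1 CPM in obesity had a median of 467105%. Every one of the 12 endothelial and 7 pericyte markers kept a larger percentage than each of the 6 coat genes. Cav1 exceeded 9 of the 12 adipocyte markers and Cavin3 all 12. The part of tissue makeup in the difference was not tested.

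**Figure D3:**
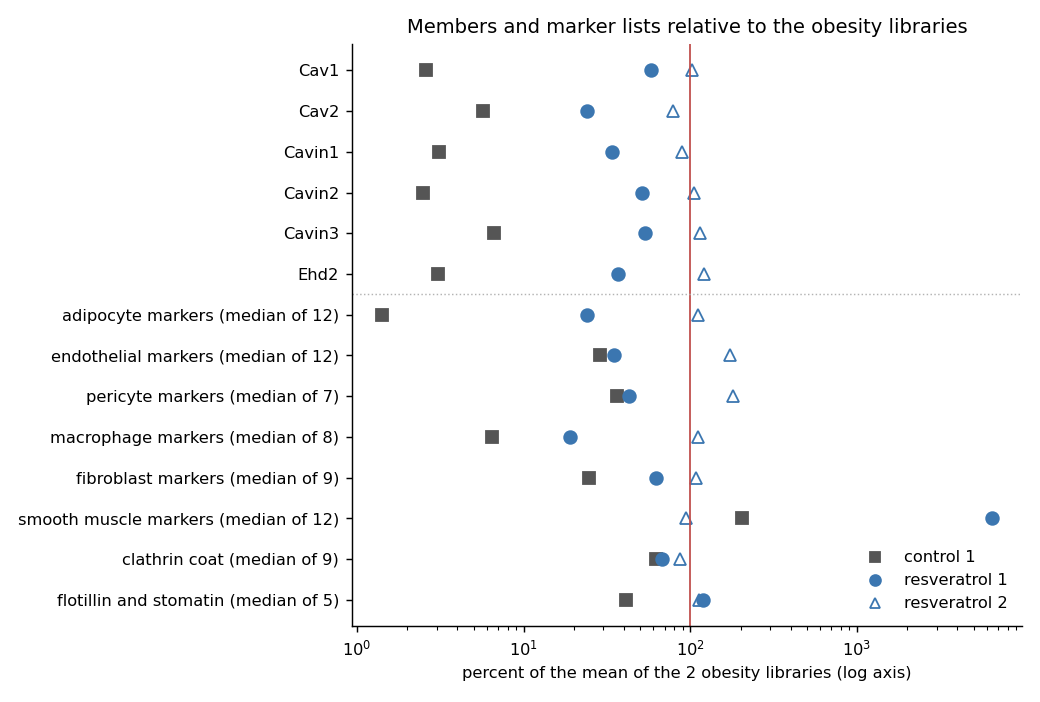
Level in control 1, resveratrol 1 and resveratrol 2 as a percentage of the mean of the 2 obesity libraries (log axis) for the 6 abundant coat genes, above the dotted line, and as list medians for cell type markers and other membrane coats, below it. The coat genes sit at 2.49% to 6.61% in control 1, at 24.1% to 57.8% in resveratrol 1 and at 79.1% to 120% in resveratrol 2.

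The second comparison asked how resveratrol treatment differed from vehicle in mice that had been fed the high-fat diet. Its values shared the obesity libraries with the first comparison. Fitted differences were under 2 SE for 7 of the 8 genes. Cav2, at 524 ± 4.08 CPM in the obesity pair and 270 ± 204 CPM in the resveratrol pair (SD, n = 2), had a log2 difference of -0.95 (SE 0.664, edgeR adjusted p = 0.899). Cavin1, at 2929 ± 217 and 1808 ± 1151 CPM, differed by -0.70 (SE 0.718). Cav1 differed by -0.33 (SE 0.581), Cavin2 by -0.35 (SE 0.484), Cavin3 by -0.25 (SE 0.490) and Ehd2 by -0.35 (SE 0.727). Cavin4 differed by -1.04 (SE 1.35), which became -0.13 without resveratrol 1 and -4.15 without resveratrol 2 (edgeR adjusted p = 0.101). Cav3 differed by 6.00 (SE 2.43, edgeR adjusted p = 0.899), a fitted value that rests on the 83 counts of resveratrol 1 and was 1.48 without that library and 8.52 without obesity 2.

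In edgeR 0 of the 8 genes passed, as did 0% of all genes, and 0 of the 8 had an unadjusted p under 0.05, where 1.92% of all genes were higher and 0.428% lower. DESeq2 also called 0 of the 8, beside 0.803% of all genes as higher and 0.0807% as lower, and gave Cavin4 no adjusted p. limma-voom called 0 of the 8, beside 0% of all genes. Cav2 and Cavin1 lay lower in both resveratrol libraries than in both obesity libraries, 2 of 8 beside 16.7% of all genes. Cav3 lay higher in both, 1 of 8 beside 16.9%, though resveratrol 2 had just 2 counts. The median log2 difference was -0.35 over the 8 genes and 0.05 over all genes.

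The resveratrol pair disagreed on every abundant coat gene. Resveratrol 1 stood at 57.8% of the obesity mean for Cav1, 53.2% for Cavin3, 50.9% for Cavin2, 36.8% for Ehd2, 33.9% for Cavin1 and 24.1% for Cav2. Resveratrol 2 stood at 120% for Ehd2, 115% for Cavin3, 106% for Cavin2, 102% for Cav1, 89.5% for Cavin1 and 79.1% for Cav2. Without resveratrol 1 the log2 difference was 0.04 (SE 0.293) for Cav1, 0.09 (SE 0.230) for Cavin2, 0.21 (SE 0.221) for Cavin3 and 0.27 (SE 0.292) for Ehd2, each turned from lower to higher. Cav2 and Cavin1 stayed negative in that fit, at -0.33 and -0.15, and 0 of the 8 were called, beside 0.136% of all genes. Without resveratrol 2, which sets resveratrol 1 alone against the obesity pair, edgeR called 6 of the 8: Cav2, Cavin1, Cavin2, Cavin3 and Ehd2 as lower and Cav3 as higher. That fit called 19.5% of all genes. The log2 differences were -2.05 (SE 0.242, edgeR adjusted p = 0.00260) for Cav2 and -1.55 (SE 0.338, adjusted p = 0.0228) for Cavin1, with the lone resveratrol library assumed to have the spread of the obesity pair.

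Cell type markers in resveratrol 1 also differed from the obesity mean. Adipocyte markers had a median of 23.99% there, macrophage markers 18.8% and endothelial markers 34.6%. Pericyte markers had a median of 42.7% (single markers from 32.9% to 166%) and fibroblast markers 62.2% (15.3% to 335%). The smooth muscle markers had a median of 6450%. Cav1, Cavin2, Cavin3 and Ehd2 each kept a larger percentage than 11 of the 12 adipocyte markers, Cavin1 than 10 and Cav2 than 6. Over the endothelial list, Cav1, Cavin2 and Cavin3 each exceeded 10 of 12 markers and Cav2 exceeded 2. In resveratrol 2 the adipocyte median was 112% and the endothelial median 174%. The part of these cell types in the coat gene levels was not tested.

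The last comparison set the resveratrol libraries against the same control library as the first. The 6 abundant coat genes were again higher, from 9.08-fold for Cav2 to 31.4-fold for Cavin2. The log2 difference was 4.97 (SE 0.782, edgeR adjusted p = 0.192) for Cavin2, 4.94 (SE 0.936, adjusted p = 0.215) for Cav1 and 3.18 (SE 0.958, adjusted p = 0.249) for Cav2. Ehd2 differed by 4.67 (SE 1.15), Cavin1 by 4.32 (SE 1.11) and Cavin3 by 3.67 (SE 0.733). Cav3 differed by -0.48 (SE 2.07) and Cavin4 by -0.44 (SE 1.61), both within the spread. Without resveratrol 1 these 2 genes were at -4.99 and 0.48, and without resveratrol 2 at 0.51 and -3.53. edgeR called 0 of the 8, as it did 0% of all genes. At an unadjusted p under 0.05, 6 of the 8 were higher, beside 10.5% of all genes, and 0 lower, beside 8.05%. DESeq2 called the same 6 as higher, beside 8.29% of all genes, and 0 as lower, beside 4.16%. limma-voom called 0 of the 8, beside 0.323% of all genes. In 6 of the 8 both resveratrol libraries exceeded the control library, as in 37.7% of all genes, and in 0 both were lower, as in 41%. Leaving out resveratrol 1 gave 7 calls, Cav3 as lower among them, where 30.7% of all genes were called, and leaving out resveratrol 2 gave 6, where 17.2% were.

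**Figure D4:**
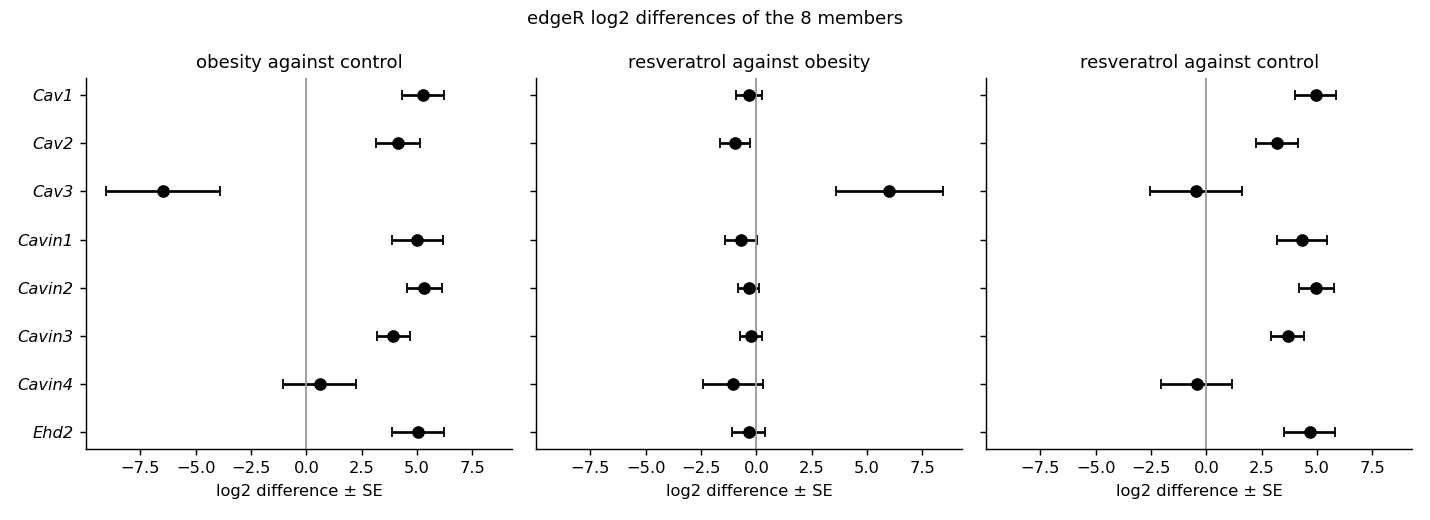
edgeR log2 differences with their SE for the 8 genes in the 3 comparisons, on a common axis; values right of 0 are higher in the group named first. The 6 abundant genes lie between 3.92 and 5.32 in obesity against control and between -0.95 and -0.25 in resveratrol against obesity, while Cav3 lies at -6.49 and 6.00.

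Proteins that act with the coat at the caveola neck were followed as a list of 10: the other EHD ATPases, the membrane-bending pacsins, the dynamins that cut vesicles free, and Ror1, a receptor that scaffolds caveolin and cavin. In obesity against control 7 had a positive and 3 a negative log2 difference, with a median of 0.88. edgeR called 0 of the 10, with 4 higher and 1 lower at an unadjusted p under 0.05, beside 12.6% and 11.7% of all genes. DESeq2 called 4 higher (Dnm1, Ehd1, Ehd4 and Pacsin2) and 1 lower (Pacsin1), beside 10.8% and 7.44% of all genes. Ehd4 measured 35.4 CPM in control 1, 215 and 186 CPM in the obesity pair, and 124 and 173 CPM in resveratrol 1 and 2, a log2 difference of 2.50 between obesity and control (SE 0.426, edgeR adjusted p = 0.174). Pacsin1 went the other way, at 27.0 CPM in control 1 against 0.678 to 1.05 CPM in the other 4 libraries. In resveratrol against obesity edgeR and DESeq2 called 0 of the 10. At an unadjusted p under 0.05 in edgeR 1 was higher and 0 lower, beside 1.92% and 0.428% of all genes. Pacsin3 was at 18.4 and 14.1 CPM in obesity and 62.2 and 26.4 CPM in resveratrol 1 and 2, and Ror1 at 2.87 and 2.62 CPM in obesity and 17.4 and 5.06 CPM in resveratrol 1 and 2. These 2 genes are named for the smallest p of the list. They are the 2 of 10 that lay higher in both resveratrol libraries than in both obesity libraries, beside 16.9% of all genes, and the larger value of each was in resveratrol 1.

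A list of 10 receptors, channels and enzymes found in caveolae had 9 positive and 1 negative log2 difference in obesity against control, with a median of 1.49. edgeR called 0 of the 10, with 4 higher at an unadjusted p under 0.05, beside 12.6% of all genes. DESeq2 called 5 higher (Abcc9, Cd36, Nos3, Slc2a4 and Trpc1), beside 10.8% of all genes. Slc2a4, the insulin-responsive glucose transporter gene, measured 14.6 CPM in control 1, 118 and 177 CPM in the obesity pair, and 267 and 178 CPM in resveratrol 1 and 2. Cd36, the fatty acid translocase gene, measured 19.8 CPM in control 1, 3171 and 3755 CPM in the obesity pair, and 353 and 3111 CPM in resveratrol 1 and 2. In resveratrol 1 Cd36 was low and Slc2a4 was the highest of the 5 libraries. In resveratrol against obesity 6 differences were positive and 4 negative. edgeR called 0 of the 10, with 2 higher at an unadjusted p under 0.05, beside 1.92% of all genes. DESeq2 called 1 higher, Kcnj8, beside 0.803% of all genes. The 2 with the smallest p in edgeR encode the ATP-sensitive potassium channel of vascular muscle. Kcnj8, its pore, was at 12.1 and 9.57 CPM in obesity and 116 and 33.8 CPM in resveratrol 1 and 2, and Abcc9, its regulatory subunit, was at 20.0 and 23.1 CPM in obesity and 83.0 and 46.6 CPM in resveratrol 1 and 2. The edgeR adjusted p was 0.899 for each. In 3 of the 10 genes, these 2 included, both resveratrol libraries lay above both obesity libraries, beside 16.9% of all genes. Both genes peaked in resveratrol 1, where the smooth muscle markers summed to 57692 CPM, and the part of smooth muscle in their levels was not tested.

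Other membrane coats and scaffolds were followed for their values beside the caveolae coat. The 10 clathrin coat and adaptor genes had a median log2 difference of 0.95 in obesity against control, 9 positive and 1 negative. edgeR called 0 of the 10, with 2 higher at an unadjusted p under 0.05, beside 12.6% of all genes. DESeq2 called 1 higher, Cltc, beside 10.8% of all genes. Cltc, the clathrin heavy chain gene, measured 164 CPM in control 1, 342 and 416 CPM in the obesity pair, and 256 and 327 CPM in resveratrol 1 and 2. Picalm, a clathrin assembly protein gene, measured 102 CPM in control 1, 281 and 270 CPM in the obesity pair, and 124 and 209 CPM in resveratrol 1 and 2. The adaptor subunit gene Ap2a2 measured 86.0 CPM in control 1, 306 and 319 CPM in the obesity pair, and 105 and 255 CPM in resveratrol 1 and 2. For these 3 both obesity libraries lay above every other library. They were named for their small p in comparisons with the obesity pair, a choice that favours this order. In 6 of the 10 clathrin genes both resveratrol libraries lay below both obesity libraries, beside 16.7% of all genes.

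The 5 flotillin and stomatin genes, scaffolds of flat membrane domains, had a median log2 difference of 1.29 in obesity against control, all 5 positive. edgeR called 0 of the 5, with 3 higher at an unadjusted p under 0.05, beside 12.6% of all genes. DESeq2 called 3 higher (Flot1, Flot2 and Stom), beside 10.8% of all genes. Flot1 measured 51.8 CPM in control 1, 137 and 139 CPM in the obesity pair, and 138 and 171 CPM in resveratrol 1 and 2. Stom measured 24.1 CPM in control 1, 157 and 137 CPM in the obesity pair, and 69.1 and 130 CPM in resveratrol 1 and 2. In resveratrol against obesity edgeR and DESeq2 called 0 of the clathrin and flotillin genes. None had an unadjusted p under 0.05 in edgeR, where 1.92% of all genes were higher and 0.428% lower. The median log2 differences were -0.31 for the clathrin list and 0.16 for the flotillin list. Stoml1, a stomatin relative, was at 35.6 and 31.9 CPM in obesity and 48.7 and 37.8 CPM in resveratrol 1 and 2. No test was made of the caveolae coat genes against these lists.

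Among the 8 genes the profiles of Cav1 and Cavin2 across the 5 libraries were the most alike, with a root mean square distance of 0.0816 between their centred log2 levels. Cavin1 and Ehd2 followed at 0.239, and Cav1 and Cav2 were 0.771 apart. Cav3 was at least 1.83 from every other member. Neighbours were sought among 10189 genes with a mean of at least 10 CPM, a number that includes the abundant coat genes, which were not ranked. The 3 nearest to Cav1 were Itga7 (0.146), an integrin subunit gene, Aifm2 (0.199) and Slc22a3 (0.229), an organic cation transporter gene. Itga7 and Aifm2 were also the nearest to Cavin2, at 0.121 and 0.153, with Retn next at 0.224. The 3 nearest to Cavin1 were Retn (0.110), the resistin gene, Ppp1r1a (0.157) and Zeb2 (0.176).

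Nfatc2 (0.0469), Nek6 (0.0685) and Ccnd2 (0.0956) were nearest to Cav2. Xylt1 (0.0717), Smoc1 (0.130) and the collagen VI gene Col6a1 (0.137) were nearest to Cavin3, and Cpne2 (0.172), Gas7 (0.175) and Aifm2 (0.196) to Ehd2. The nearest to Cav3 were Morn4 (0.142), Pgrmc1 (0.155) and Emb (0.162), and to Cavin4 As3mt (0.0571), Fgd6 (0.0789) and C1galt1 (0.0915). All distances come from 5 libraries and a pseudocount of 0.5. With a pseudocount of 0.1 or 2 none of the neighbours of Cav3 and Cavin4 were the same, and 10 or 11 of the 18 for the other 6 genes were.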

How the data were processed

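RNA of 5 libraries was measured as poly-A messenger RNA. The deposited table holds raw counts, which the authors made with featureCounts on genome build GRCm39 after FastQC, per the submitters' processing notes; aligner, annotation release, strand setting and versions: not given in the sources used here. Of 78334 identifiers 65.7% were given a symbol from GENCODE M21 names. Merged exon lengths came from GENCODE M21 and promoter windows from RefSeq, both on GRCm38, so no gene coordinates of the files are given. In R 4.3.3, edgeR 4.0.16 kept genes with filterByExpr (minimum count 10, minimum total 15), scaled with TMM and fitted a robust quasi-likelihood model to all 5 libraries; F tests were adjusted with Benjamini-Hochberg over all 24779 genes at 0.05. The spread of the single control was taken to equal that of the other groups. The SE is the absolute log2 difference divided by the square root of F. Totals of 19540961 to 27026597 counts limit precision for Cav3 and Cavin4 alone; intervals are exact at 95%. Alternatives were median-ratio factors, library totals, no filter or a minimum count of 50, DESeq2 1.42.0, limma-voom (limma 3.58.1), a non-robust fit, a fit to just the compared groups, a replicate block and leaving libraries out. In simulated data given the spread of these libraries, edgeR missed most or all of the changed genes. How far this miss rate carries over to the measured libraries was not tested. The lack of edgeR calls is not taken as evidence of no difference. Figures used matplotlib 3.10.9.

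The 8 genes, the other lists and the markers were chosen with earlier results of these data known. All 8 members were named whatever their values, with the 3 genes nearest in profile to each (mean of 10 CPM or more, a symbol that is no predicted gene), and the 2 genes with the smallest p of each other list in obesity against control and in resveratrol against obesity. List medians of the percentage of the obesity mean use genes with at least 1 CPM in obesity. Of the 7 mesothelial markers, a further list, Krt19 was highest in resveratrol 1 at 207 CPM, against 122 CPM for control 1, 115 CPM for obesity 1 and 3.43 CPM for obesity 2. Msln, Upk3b, Lrrn4 and Wt1 were highest in resveratrol 2, at 65.4, 108, 14.9 and 11.7 CPM, and at 0.209 to 0.349 CPM in control 1. Gpm6a and Rspo1 also peaked in resveratrol 2 (31.5 and 32.2 CPM). Gpm6a was nearly as high in resveratrol 1 (27.9 CPM). Rspo1 reached 10.1 CPM for the control library, above both obesity libraries (3.08 and 1.00 CPM).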

Additional observations from a re-analysis of the deposited data

How the results depend on the processing

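Calls among the 8 genes depended on the fit, and so did the share of all genes called. In obesity against control the number called was 0 in the fit reported and 6 with DESeq2, 6 with no filter on low counts (2575 of 43522 genes called) and 7 with only the 2 groups compared, and it ran from 0 to 7 when 1 library was left out (7 without resveratrol 1, 7 without resveratrol 2). In resveratrol against control it was 6 with DESeq2 (3085 of 24779 genes called) and 5 with no filter (1671 of 43522 genes called). It also moved there when 1 resveratrol library was left out. In resveratrol against obesity it was 0 under all alternatives except leaving out resveratrol 2, which gave 6, a range of 0 to 6. The cause of these changes in the number called was not tested. The median log2 difference of the 8 genes in obesity against control ran from 4.15 with the replicate block to 4.90 with a minimum count of 50, where Cavin4 was not tested.

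Resveratrol against obesity ran, with 1 library left out, up to 0.0359 for Cav1, 0.0919 for Cavin2, 0.2072 for Cavin3 and 0.2739 for Ehd2 (all without resveratrol 1), and down to -0.782, -0.966, -0.9017 and -1.4333 (all without resveratrol 2). With control 1 and resveratrol 1 both left out these 4 genes were at 0.0346, 0.0907, 0.2059 and 0.2729. In resveratrol against control Cav3 turned to 0.0738 with the replicate block and ran from -4.9926 without resveratrol 1 to 0.5124 without resveratrol 2, and Cavin4 ran from -3.5321 without resveratrol 2 to 0.4841 without resveratrol 1. The directions of Cav1, Cav2, Cavin1, Cavin2, Cavin3, Ehd2 and Cav3 in obesity against control held under all 13 alternatives. Library totals in place of TMM moved the median of all genes in that comparison from -0.10 to -0.23 and that of the 8 genes from 4.58 to 4.46, with no change of direction among them. The replicate numbers are shared by title alone: deviations of same-numbered obesity and resveratrol libraries correlated at 0.299 across 24779 genes (2 pairs), and the block gave 0 calls among the 8 genes in each comparison. Depth limits Cav3 and Cavin4, where 3 counts are 0.105 to 0.157 CPM.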
